A study of Mus musculus with 6 samples.

Results

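The 32 genes described here encode the working parts of the lysosome of mouse alveolar macrophages: 9 cathepsins, 12 acid hydrolases and activators, 8 membrane and cholesterol transfer proteins, and the 3 transcription factors Tfeb, Tfe3 and Mitf. They were taken by symbol from a table of raw counts that lists 23413 genes, and all 32 had enough counts to be among the 10724 genes tested. The cells were wild-type alveolar macrophages, phagocytes that reside in the air sacs, lavaged from mice of which the labels give no age, sex or strain. LPS cells received 100 ng/mL lipopolysaccharide for 4 h in culture, and LPS + VD3 cells received the same LPS with 50 nM vitamin D3. Control cells carry the agent label control, with no culture time given. RNA-seq gave 2 libraries in each of the 3 groups, and nothing in the labels ties the libraries of a group to separate mice or cultures, so a p-value here reflects only how far libraries differ, which could be technical.

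Total counts per library lay between 5022314 and 5465223. Of the alveolar macrophage markers, Marco stood at 1431 or more CPM (read counts relative to the TMM-scaled library size) and Lpl at 5117 or more in every library. Of the 20 markers listed 17 were in the table under these symbols, and Ear10 was at 0 counts throughout. Of the 16 tested, 3 rose and 8 fell with LPS at an edgeR adjusted p under 0.05. That was 68.8% of them, against 31.4% of all genes tested. S100a9, Mpo, Elane, Retnlg, Cd3e, Nkg7, Gzma, Col3a1 and Sftpc, from the lists of markers of other cell types, had 0 counts throughout. By the edgeR test Cdh1, Ccr2 and Clec9a fell and Vcan, Xcr1 and Pdgfrb rose with LPS. Summed over the 12 epithelial markers, of which 9 stayed under 10 counts, the level was 230 to 248 CPM in control, 42.6 to 44.2 with LPS and 49.8 to 58.4 with LPS + VD3. The neutrophil markers summed to 56.4 to 81.9 CPM over all libraries. The monocyte-linked Vcan stood at 3.42 and 3.68 CPM in control, 267 and 365 with LPS, and 181 and 204 with LPS + VD3. The part of other cells in the results was not tested. The induced cytokine Tnf went from 27.4 and 24.8 CPM in control to 2954 and 2220 with LPS, and Cyp24a1, the vitamin D target, was at 0 counts with LPS alone and at 112 and 124 counts once VD3 was added. Library LPS 1 stood apart from LPS 2 in step with transcript GC content, with Spearman's rho of 0.66 over 10642 genes between GC and the difference of the 2 libraries, against 0.23 in control and 0.18 in LPS + VD3. The deposited title of LPS 1 also lies outside the number series shared by the titles of the other libraries, and the labels do not say why.

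Lysosomes are acidic compartments in which macrophages digest the material they take up, in the lung above all surfactant lipids and inhaled particles. Most of the enzymes are made as precursors, tagged with mannose 6-phosphate and matured by proteolysis on arrival. TFEB, TFE3 and MITF are basic helix-loop-helix leucine zipper factors that bind an E-box variant known as the CLEAR element near the start sites of many lysosomal genes. When nutrient signalling through mTORC1 at the lysosomal surface is low, these factors move into the nucleus. Their activity is therefore set largely by location and phosphorylation, which RNA levels do not show.

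Promoter windows from RefSeq, reaching from 250 bases before to 50 bases after the start site on GRCm38.p6 (the mm10 assembly), were available for 28 of the 32 genes. The core CACGTG, a palindrome that reads the same on both strands, stood in the windows of 9 of the 28 genes. The longer TCACGTG, searched on both strands and containing that core, stood in 8 of 28 (28.6%): Cln3, Ctsa, Ctsd, Gaa, Gla, Glb1, Lamp1 and Mcoln1. The same 7 letters stood in 4.29% of the 27025 genes with a window and in 7.41% of the 8098 tested genes that have one. As the element is known from lysosomal genes, the higher share among them is not a finding of these data. Among the genes with the core, Lamp1, Mcoln1 and Cln3 encode membrane proteins, and Ctsd and Gla encode enzymes. Stretches upstream of their RefSeq start sites are shown because they hold the core, and capitals mark each CACGTG. They lie at chr8:13159091-13159160 (plus strand) for Lamp1, chr8:3500429-3500498 (plus) for Mcoln1, chr7:126583334-126583403 (minus) for Cln3, chr7:142387888-142387957 (minus) for Ctsd and chrX:134601179-134601248 (minus) for Gla. The GENCODE gene models of Cln3 and Ctsd begin further upstream and span these stretches, and that of Mcoln1 spans part of its stretch.
Lamp1: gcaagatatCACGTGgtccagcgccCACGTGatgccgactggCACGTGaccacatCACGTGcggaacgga
Mcoln1: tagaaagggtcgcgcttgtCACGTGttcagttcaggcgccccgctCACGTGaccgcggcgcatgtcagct
Cln3: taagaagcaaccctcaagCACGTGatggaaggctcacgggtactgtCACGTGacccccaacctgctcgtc
Ctsd: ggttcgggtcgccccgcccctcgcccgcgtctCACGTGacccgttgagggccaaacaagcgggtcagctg
Gla: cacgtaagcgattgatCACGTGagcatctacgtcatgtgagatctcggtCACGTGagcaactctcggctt
Lamp1 carried 4 cores in the 70 bases before its start site, and Ctsa, Cln3, Ctsd, Gla and Mcoln1 carried 2 each in their windows. A match is a run of letters, not a measured binding site.

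In resting cells the lysosomal genes spanned a wide range of levels. Per kilobase of exon, the aspartic protease Ctsd (2635 CPM per kb) and Psap (2426), the precursor of the saposins that present sphingolipids to their hydrolases, ranked first and second of the 32 in the control mean and kept these ranks in both other groups. Next came Ctss (1543), which trims the MHC class II invariant chain, and Ctsk (849), a collagen-degrading protease best known from osteoclasts. The lowest 3 were Cln3 (9.96), Tfeb (7.89) and Smpd1 (5.82), the acid sphingomyelinase. Exon lengths are those of the GENCODE basic gene models, so a level per kilobase assumes that these are the transcripts made. Together the 32 genes took 3.41% and 3.37% of all counts in the control libraries, 2.75% and 2.43% with LPS, and 2.40% and 2.28% with LPS + VD3. Psap and Ctsd alone took 1.43% and 1.40% in control and 0.902% and 0.792% in LPS + VD3. Both treated groups thus lay below control without overlap in this share, which was not tested. The share is not TMM-scaled, and the genes induced by LPS also enter its denominator. In bulk RNA, fewer cells of a type and less RNA per cell cannot be told apart.

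**Figure D1:**
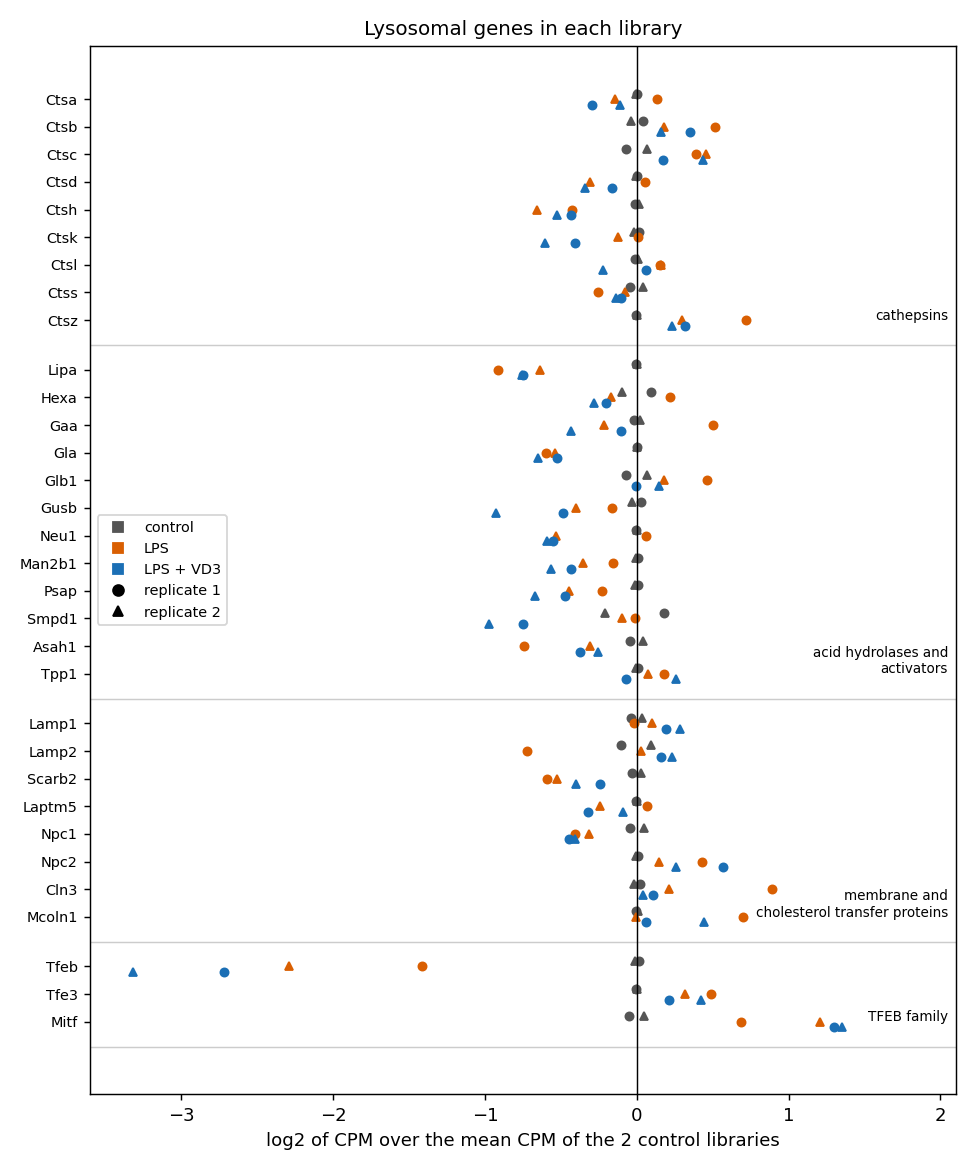
Level of each of the 32 genes in each library, as log2 of TMM-scaled CPM over the mean of the 2 control libraries (circles, replicate 1; triangles, replicate 2). Tfeb lies far to the left and Mitf to the right in all 4 treated libraries, Lipa lies to the left in all 4, and Lamp2 of LPS 1 lies apart from its partner.

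LPS against control asked how 4 h of LPS changed these genes. It lowered Tfeb, the acid lipase Lipa, the protease Ctsh, the galactosidase Gla, the ceramidase Asah1 and the membrane protein Scarb2, and it raised Mitf and the protease Ctsz. Most of the lysosomal genes did not pass: 2 of 32 rose and 6 fell at an edgeR quasi-likelihood adjusted p under 0.05, and 24 did not pass. Among all 10724 genes tested 31.4% passed, 15.5% upward and 16.0% downward, and among the 32 it was 25.0%. The median log2 fold change was -0.05 over the 32 genes and 0.01 over all genes tested. Only Tfeb passed with a change of at least 2-fold. All LPS libraries lay above all control libraries in 10 of the 32 genes and below them in 11, where 31.6% and 33.6% of all genes did so. Without TMM scaling, where the median of all genes is -0.29 and 38.3% of them passed, 1 of the 32 rose and 11 fell. Without control 1 or control 2 the calls of Tfeb, Lipa and Mitf held and the other calls were lost. The median log2 fold change of the 32 was -0.13 without LPS 1 and 0.06 without LPS 2, beside -0.02 and -0.01 over all genes.

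The TFEB family moved apart. Tfeb stood at 31.99 and 31.37 CPM in control, 11.9 and 6.46 with LPS, and 4.81 and 3.18 with LPS + VD3. In raw counts these are 187 and 196, 58 and 32, and 23 and 16. The 3 groups did not overlap, and the treated libraries were all below control. With LPS Tfeb was 3.45-fold lower (log2 fold change -1.79, SE 0.29, edgeR adjusted p = 0.000911; values after ± are SEs from here on). LPS 1 exceeded LPS 2 by 0.88 on the log2 scale, the largest such difference of the 32 genes, and Tfeb also has the highest GC content of the 32, at 63.2%. Mitf, a relative that also serves osteoclasts, mast cells and pigment cells, showed the opposite order, with 115 and 123 CPM in control, 191 and 274 with LPS, and 292 and 303 with LPS + VD3. It rose 1.96-fold with LPS (log2 fold change 0.97 ± 0.19, edgeR adjusted p = 0.00288), and again no 2 groups overlapped. Tfe3 stood at 75.1 and 75.5 CPM in control, 106 and 93.9 with LPS, and 87.2 and 101 with LPS + VD3. Its treated libraries were all above control, but it did not pass with LPS (edgeR adjusted p = 0.0761). The Tfeb and Mitf calls held in all 13 alternative fits, with adjusted p up to 0.00507 for Tfeb and 0.0416 for Mitf. Tfeb lies at chr17:47737030-47792419 on the plus strand of mm10, Mitf at chr6:97807052-98021349 (plus) and Tfe3 at chrX:7762560-7775202 (plus).

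**Figure D2:**
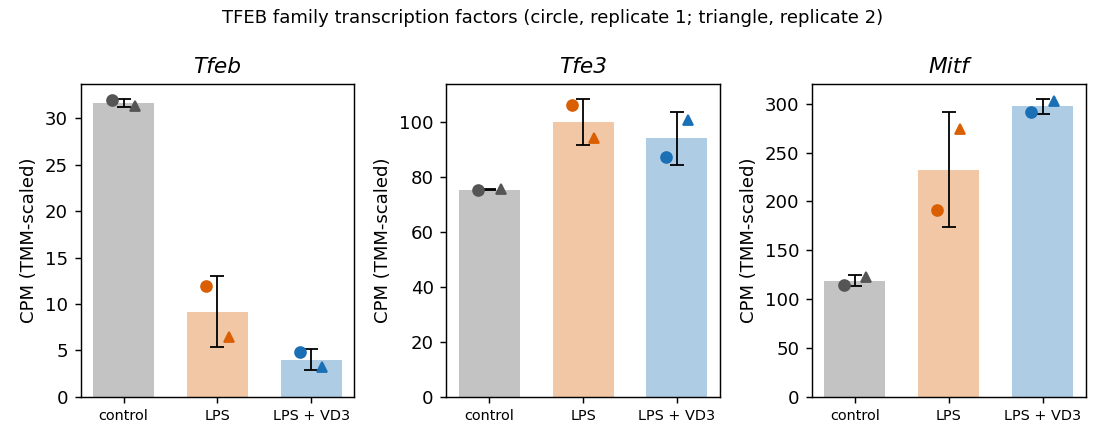
TMM-scaled CPM of Tfeb, Tfe3 and Mitf in the 3 groups (bars, mean; error bars, SD; points, the 2 libraries of each group). Tfeb steps down from about 31.7 CPM in control to 3.99 in LPS + VD3, Mitf steps up from 119 to 297, and Tfe3 stays between 75.1 and 106.

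Among the cathepsins, 1 of 9 rose and 1 fell with LPS. Ctsz, a carboxypeptidase, had 952 and 957 CPM in control, 1570 and 1175 with LPS, and 1190 and 1119 with LPS + VD3. The log2 rise was 0.52 ± 0.16 (edgeR adjusted p = 0.0327), with LPS 1 much the highest of the 6 libraries. The call was lost in 7 of 13 alternative fits, with adjusted p of 0.302 without scaling, 0.0531 in the compared libraries alone, 0.205 and 0.207 without control 1 or 2, 0.0633 without LPS 1, and 0.0586 and 0.0651 without LPS + VD3 1 or 2. Ctsh, an aminopeptidase that also processes surfactant protein precursors in the lung epithelium, had 237 and 241 CPM in control, 178 and 152 with LPS, and 177 and 166 with LPS + VD3. All treated libraries lay below control, and it fell by 0.54 ± 0.15 with LPS (edgeR adjusted p = 0.0218, but 0.163 and 0.195 without control 1 or 2). Ctsb and Ctsc were higher in both LPS libraries than in both control libraries without passing. Ctsc, which activates serine proteases by removing dipeptides, had 1087 and 1202 CPM in control and 1497 and 1567 in LPS (edgeR adjusted p = 0.0542). Ctsb, a broad endopeptidase, had 2154 and 2037 CPM in control and 2995 and 2371 in LPS (0.111). Ctsd, the most abundant of the cathepsins, had 5621 and 5590 CPM in control, 5832 and 4532 with LPS, and 5008 and 4419 with LPS + VD3. Its LPS libraries thus lay on both sides of control. Ctsa, which protects Neu1 and Glb1 in a complex, also had LPS libraries on both sides of control (604 and 499 CPM against 554 and 550). Ctsl and Ctss, endopeptidases, stayed between 405 and 528 and between 1753 and 2154 CPM over the 6 libraries.

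Of the 12 acid hydrolases and activators 3 fell with LPS and none rose. Lipa, the lysosomal acid lipase that frees cholesterol and fatty acids from lipoprotein and surfactant lipids, had 2126 and 2133 CPM in control, 1133 and 1370 with LPS, and 1264 and 1261 with LPS + VD3. Every treated library lay below both control libraries. Lipa was 1.70-fold lower with LPS (log2 fold change -0.77 ± 0.14, edgeR adjusted p = 0.00244), and this call held in all 13 alternatives, with adjusted p up to 0.0376. Gla, the alpha-galactosidase that digests globotriaosylceramide, had 73.2 and 73.1 CPM in control and 48.4 and 50.3 in LPS, a fall of 0.57 ± 0.16 (edgeR adjusted p = 0.0181, but 0.159 and 0.165 without control 1 or 2). Asah1, the acid ceramidase, had 379 and 404 CPM in control and 234 and 317 in LPS. It fell by 0.51 ± 0.17 (edgeR adjusted p = 0.0474). The Asah1 call was also lost in 7 of 13 alternative fits: with every gene of at least 1 count (0.0658), in the compared libraries alone (0.0873), without control 1 (0.182) or 2 (0.284), without LPS 1 (0.0811), and without LPS + VD3 1 (0.0816) or 2 (0.074). Lipa lies at chr19:34492318-34527474 on the minus strand of mm10, Gla at chrX:134588149-134601125 (minus) and Asah1 at chr8:41340197-41374773 (minus).

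The other 9 hydrolases and activators did not pass with LPS. Psap had 6703 and 6611 CPM in control and 5675 and 4885 in LPS, lower in both LPS libraries (edgeR adjusted p = 0.101). The beta-glucuronidase Gusb (412 and 396 against 361 and 306 CPM) and the alpha-mannosidase Man2b1 (343 and 340 against 306 and 267) likewise had both LPS libraries below both controls. The beta-galactosidase Glb1 (23.8 and 26.2 against 34.4 and 28.3) and the tripeptidyl peptidase Tpp1 (239 and 237 against 269 and 251) had both above. In the sialidase Neu1 (116 and 117 against 121 and 80.4), in the glycogen-degrading Gaa (44.3 and 45.4 against 63.5 and 38.6) and in the hexosaminidase subunit Hexa (322 and 282 against 353 and 269), LPS 1 lay above and LPS 2 below the controls. Smpd1 had only 65 to 93 counts in these 4 libraries, and its LPS levels (13.9 and 13.1 CPM) lay between those of the controls (15.9 and 12.2).

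Of the 8 membrane and cholesterol transfer proteins, 1 fell with LPS and none rose. Scarb2, which carries glucocerebrosidase to the lysosome, had 182 and 190 CPM in control, 123 and 130 with LPS, and 157 and 141 with LPS + VD3. It fell by 0.56 ± 0.15 with LPS (edgeR adjusted p = 0.0169, but 0.134 and 0.186 without control 1 or 2). Npc1, the membrane exporter of cholesterol, had 257 and 273 CPM in control and 200 and 213 in LPS (edgeR adjusted p = 0.0866). Npc2, its soluble partner that hands cholesterol over, lay the other way, at 379 and 376 CPM in control and 509 and 419 in LPS (0.209). Cln3, the protein lost in juvenile Batten disease, had 33.9 and 33.0 CPM in control, and in LPS 62.1 in LPS 1 against 38.8 in LPS 2 (edgeR adjusted p = 0.0677). Mcoln1, a calcium channel of the lysosomal membrane, had 52.7 CPM in LPS 1 and 32.3 in LPS 2, with controls at 32.3 and 32.6. The abundant glycoproteins of the lysosomal membrane differed from each other: Lamp1 stayed between 1087 and 1359 CPM over the 6 libraries, while Lamp2 had 286 CPM in LPS 1 and 441 to 554 in the other 5. Laptm5, a leukocyte protein that promotes receptor breakdown, had LPS libraries on both sides of control (1532 and 1232 against 1455 and 1465 CPM).

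**Figure D3:**
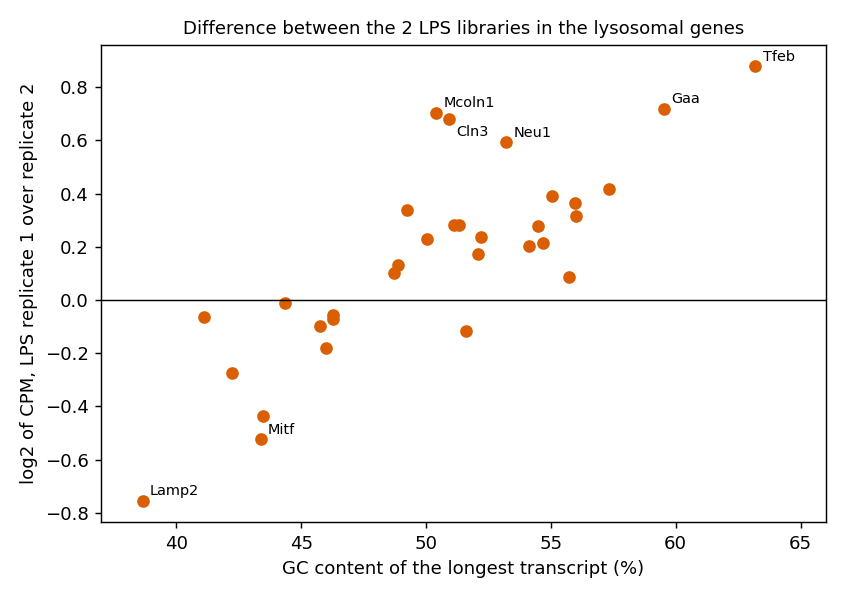
Log2 of CPM in LPS replicate 1 over LPS replicate 2 for each of the 32 genes, against the GC content of its longest transcript. The points climb from Lamp2 (38.7% GC, -0.75) to Tfeb (63.2% GC, 0.88).

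The difference between the LPS libraries followed GC content among the lysosomal genes too. Spearman's rho across the 32 genes was 0.76, a description with no p because all points come from the same pair of libraries. The median size of the log2 difference between replicates was 0.28 in LPS, 0.17 in LPS + VD3 and 0.03 in control over the 32 genes, against 0.36, 0.22 and 0.13 over all genes tested. Lamp2, at 38.7% the lowest in GC, was lowest in LPS 1 relative to LPS 2. The genes in which LPS 1 exceeded LPS 2 by most were Tfeb, Gaa, Mcoln1, Cln3 and Neu1, with log2 differences between 0.59 and 0.88. With offsets for GC content in the same edgeR fit, 6 of the lysosomal genes rose and 8 fell with LPS, and all 8 calls of the fit without offsets were kept. The share of all genes that passed with these offsets was not counted, so these counts are not read as a result about the lysosomal genes. The median log2 fold change of the 32 with LPS was then -0.07, beside 0.00 over all genes. The part of GC content in the other differences was not tested.

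LPS + VD3 against LPS asked what VD3 added to LPS. None of the 32 genes passed the edgeR test, in which 3.81% of all genes tested did (2.21% upward, 1.6% downward), and DESeq2 called none either. At an unadjusted p under 0.05, 1 gene was higher and 5 were lower, 6 of 32 where 22.0% of all genes reached that level. The median log2 fold change of the 32 was -0.12, and that of all genes 0.00. With GC offsets these medians were -0.064 and -0.019. Without LPS 1 the median of the 32 was -0.043, and without LPS 2 it was -0.26. The 5 lower genes were Tfeb (-1.20 ± 0.36, edgeR adjusted p = 0.104), Smpd1 (-0.80 ± 0.26, 0.122), Cln3 (-0.52 ± 0.22, 0.211), Ctsk (-0.45 ± 0.14, 0.119) and Gusb (-0.42 ± 0.18, 0.213), and the higher one was Lamp2 (0.49 ± 0.22, 0.227). In Ctsk, both LPS + VD3 libraries (970 and 844 CPM) lay below LPS (1294 and 1181) and control (1298 and 1270). Smpd1, from few counts, had 40 and 36 in LPS + VD3 against 68 and 65 in LPS. For Lamp2, LPS 1 (286 CPM) lay far below and LPS 2 (483 CPM) closer to LPS + VD3 (529 and 554). In 11 of the 32 genes, 7 of them hydrolases or activators, both LPS + VD3 libraries lay below both LPS libraries, and in 4 above. Among all genes 23.5% and 24.6% did so.

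The fold changes for VD3 depended on which LPS library was used. Without LPS 2, so that LPS 1 alone stood for LPS, 3 of the 32 genes rose and 10 fell, while 34.0% of all genes passed in that fit. The median log2 fold change of the 32 was -0.26 in that fit, beside -0.0062 over all genes. Without LPS 1 it was -0.043, beside 0.0080 over all genes. The share of all genes that passed without LPS 1 was not counted. The 3 that rose without LPS 2 were Lamp2, Mitf and Asah1, and the 10 that fell were Tfeb, Cln3, Neu1, Gaa, Ctsk, Ctsz, Hexa, Gusb, Smpd1 and Psap. Across the 32 genes the fold changes of the fit with all libraries had a Spearman's rho of -0.65 with GC content, and across all genes tested -0.49. With GC offsets Ctsk was the 1 gene that passed, downward, and the share of all genes that passed in that fit was not counted.

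**Figure D4:**
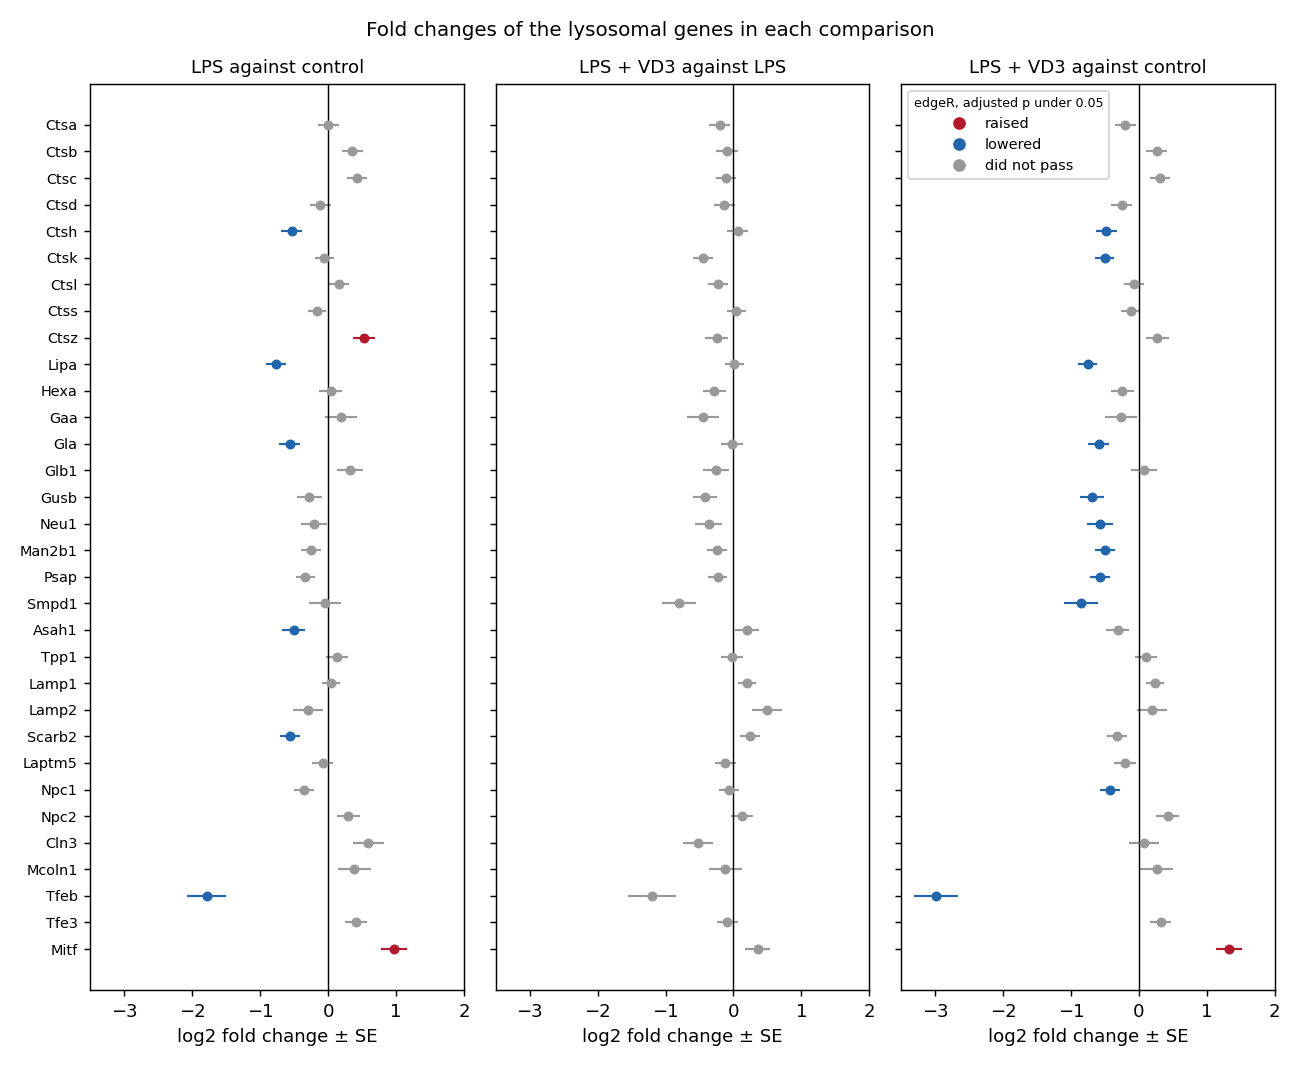
Log2 fold change with its SE of the 32 genes in the 3 comparisons (edgeR, all 6 libraries; red, raised; blue, lowered; grey, did not pass). No gene is coloured for LPS + VD3 against LPS, and 11 are blue for LPS + VD3 against control.

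LPS + VD3 against control showed lower hydrolases. Of the 32 genes 1 rose, Mitf, and 11 fell, which together is 37.5% where 34.6% of all genes passed. In the downward direction it was 11 of 32 against 17.1% of all genes, and in the upward direction 1 of 32 against 17.5%. The median log2 fold change was -0.22, and 0.01 over all genes. With GC offsets it was -0.095, and -0.0074 over all genes. Of the 12 hydrolases and activators 7 fell and none rose, with a median of -0.53. Of the 9 cathepsins 2 fell, and of the 8 membrane and cholesterol transfer proteins 1. All LPS + VD3 libraries lay below all control libraries in 19 of the 32 genes (37.4% of all genes) and above them in 10 (38.4%). Without TMM scaling 1 gene rose and 18 fell, where 41.8% of all genes passed. This comparison shares its control libraries with LPS against control, so the agreement between both is not independent.

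Tfeb was 7.92-fold lower than control in LPS + VD3 (log2 fold change -2.98 ± 0.32, edgeR adjusted p = 6.21e-05), beside 3.45-fold in LPS. Mitf was 2.50-fold higher (1.32 ± 0.19, adjusted p = 0.000412 in the same edgeR test), beside 1.96-fold. Lipa was 1.69-fold lower (-0.75 ± 0.14, 0.00259), beside 1.70-fold. These 3 calls held in all 13 alternatives. Smpd1 went from 93 and 76 counts in control to 40 and 36 and its log2 level fell by 0.85 ± 0.25 (edgeR adjusted p = 0.0249). Gusb fell by 0.69 ± 0.18 (0.0135), from 412 and 396 CPM to 288 and 212. Gla fell by 0.59 ± 0.16 (0.0146), from 73.2 and 73.1 CPM to 50.8 and 46.5. Neu1 fell by 0.57 ± 0.20 (0.0463), from 116 and 117 CPM to 79.4 and 77.1. Psap, which ranked second of the genes per kilobase of exon, fell by 0.57 ± 0.14 (0.0111), from 6703 and 6611 CPM to 4793 and 4179. Man2b1 fell by 0.50 ± 0.15 (0.0273), from 343 and 340 CPM to 253 and 231. Gusb, Neu1, Man2b1, Psap, Smpd1, Ctsk and Npc1 passed here and not with LPS alone. The test of the difference between both treated groups is the comparison of LPS + VD3 with LPS, in which none of them passed.

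Among the proteases Ctsk fell by 0.50 ± 0.14 in log2 units (edgeR adjusted p = 0.0207), from 1298 and 1270 to 970 and 844 CPM, and Ctsh by 0.48 ± 0.15 (0.0344). Npc1 fell by 0.43 ± 0.14 (0.0438), to 194 and 200 CPM. Asah1 (303 and 328 CPM) and Scarb2 (157 and 141 CPM), lowered by LPS alone, lay below control in both LPS + VD3 libraries without passing (edgeR adjusted p = 0.19 and 0.127). Lamp1 (1275 and 1359 CPM) and Npc2 (561 and 452 CPM) lay above control in both libraries without passing (0.199 and 0.0741). Apart from Tfeb, Mitf and Lipa, each of these 9 calls was lost when 1 library was left out. Without control 1 or control 2 the count of lowered genes went from 11 to 2, with edgeR adjusted p of 0.108 (Gusb) to 0.255 (Smpd1) and of 0.0563 (Smpd1) to 0.327 (Npc1) for the lost calls. Without LPS + VD3 1 it went to 5, with adjusted p of 0.0521 (Gla) to 0.158 (Neu1) in the same edgeR test, and without LPS + VD3 2 to 2, with 0.0644 (Psap) to 0.19 (Neu1). Smpd1 was also lost with DESeq2 (adjusted p = 0.0691). With every gene of at least 1 count, Ctsh, Neu1 and Npc1 were lost (edgeR adjusted p = 0.0516, 0.0566 and 0.073). Without LPS 1 or LPS 2, which enter only through the shared spread, 5 genes rose and 13 fell in each fit.

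Of the 8 genes with TCACGTG in their promoter window 1, Gla, fell with LPS and with LPS + VD3 relative to control, and none rose. Of the other 20 genes with a window 2 rose and 3 fell with LPS, and 1 rose and 8 fell with LPS + VD3. The median log2 fold change with LPS was 0.11 for the 8 genes and -0.07 for the 20, and with LPS + VD3 relative to control -0.07 and -0.22. These are counts of few genes, with no test of the difference. Lamp1, with 4 cores, and Ctsd, with 2, are among the genes that did not pass in any comparison.

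Lists of other genes that build, supply or control the lysosome were counted in the same fit. Of their 163 tested genes together 21 rose and 28 fell with LPS, which is 30.1% where 31.4% of all genes passed, and 22 rose and 38 fell in LPS + VD3 against control, 36.8% where 34.6% did. With both directions pooled, the shares therefore lay near those of all genes. By direction, 15.5% of all genes rose and 16.0% fell with LPS, and 17.5% rose and 17.1% fell in LPS + VD3 against control. In the latter the 163 had a larger share lowered (38) and a smaller share raised (22) than all genes. The lists are described gene by gene. Of 18 tested subunits of the V-ATPase, the pump that acidifies the lysosome, 4 rose and 3 fell with LPS, 38.9% in all. Tcirg1 rose by 1.5 ± 0.22 on the log2 scale and Atp6v1e1 by 0.74 ± 0.14, while Atp6v0d2, an isoform of macrophages and osteoclasts, fell by 1.54 ± 0.18. Against control, LPS + VD3 raised 2 and lowered 4 (33.3%), with Atp6v1b2 at -1.40 ± 0.18, Atp6v0d2 at -1.25 ± 0.18 and Tcirg1 at 1.15 ± 0.22. The Atp6v1e1 call with LPS was lost without control 1 (edgeR adjusted p = 0.0521) or 2 (0.08). Of 35 other hydrolases 6 rose and 6 fell with LPS (34.3%, against 31.4% of all genes). The phosphatase Acp5 rose by 1.69 ± 0.21 and the ribonuclease Rnaset2a by 2.28 ± 0.23, although the near-identical Rnaset2b makes its count uncertain, and the phospholipase Pla2g15 fell by 1.72 ± 0.19. With LPS + VD3, 5 rose and 11 fell relative to control, beside 17.5% and 17.1% of all genes. Pla2g15 stood at -2.85 ± 0.21, the beta-mannosidase Manba at -1.88 ± 0.18 and Rnaset2a at 2.23 ± 0.23.

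Among 31 other membrane proteins 4 rose and 9 fell with LPS, beside 15.5% and 16.0% of all genes. The peptide and histidine transporter Slc15a3 rose by 2.18 ± 0.19 and Mcoln2, a relative of Mcoln1, by 2.39 ± 0.20, while the endolysosomal channel Tpcn1 fell by 2.04 ± 0.27. Relative to control, 5 rose and 10 fell with LPS + VD3, beside 17.5% and 17.1% of all genes. Mcoln2 stood at 2.43 ± 0.20, Slc15a3 at 2.20 ± 0.19 and the amino acid transporter Slc36a1 at -1.68 ± 0.18. Of 23 genes that deliver enzymes or tether and move lysosomes, 3 rose and 2 fell with LPS (21.7%, against 31.4% of all genes), with Arl8a at 1.47 ± 0.19, Plekhm1 at -1.23 ± 0.16 and the sorting receptor Sort1 at -0.90 ± 0.14. With LPS + VD3, 4 rose and 3 fell relative to control (30.4%, against 34.6% of all genes). Gnptab, which makes the mannose 6-phosphate tag, stood at 1.55 ± 0.16, Ap3b1 at 1.35 ± 0.17 and Plekhm1 at -1.63 ± 0.16.

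**Figure D5:**
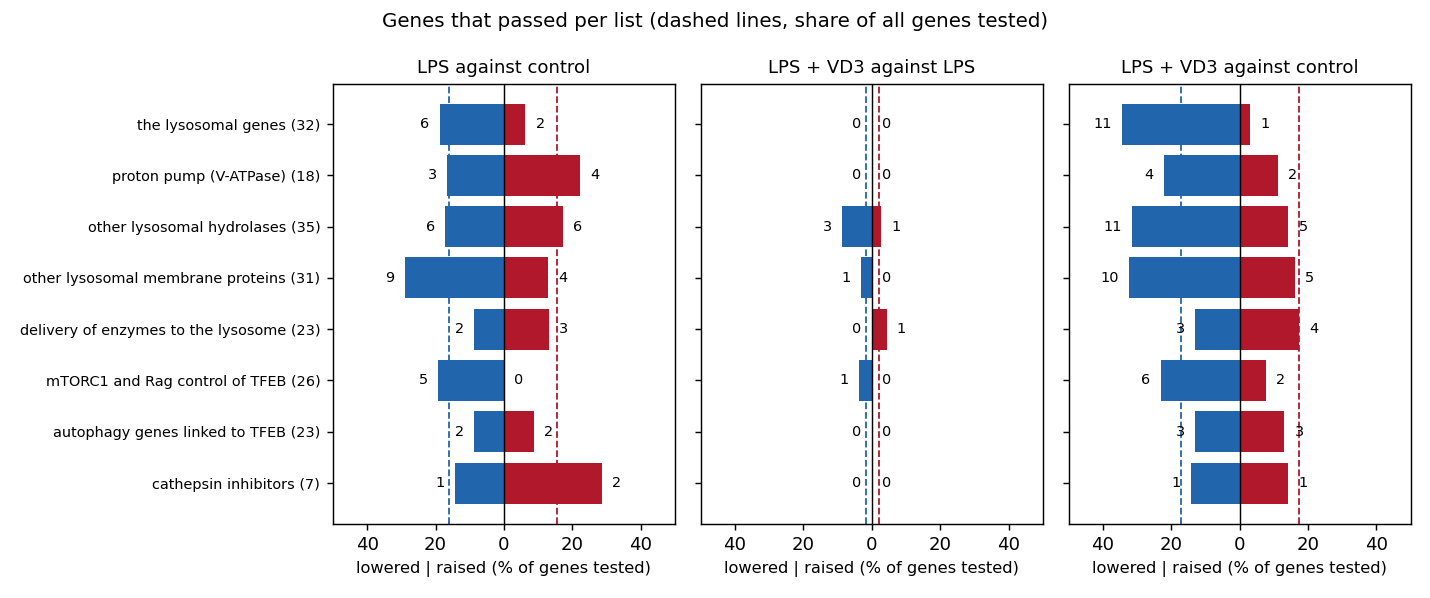
Share of the tested genes of each list that were lowered (left, blue) or raised (right, red) in each comparison, with the number of genes beside each bar; dashed lines give the share of all genes tested. The lysosomal genes show 6 and 2 with LPS, none with VD3 on top of LPS, and 11 and 1 for LPS + VD3 against control.

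Of 26 tested genes of mTORC1, its Rag GTPase and nutrient-sensing partners and calcineurin, a list that also holds the TFEB relative Tfec, 5 fell (19.2%, against 16.0% of all genes) and none rose with LPS, with the calcineurin subunit Ppp3ca at -0.83 ± 0.18, Depdc5 at -0.91 ± 0.20 and Sesn1 at -1.02 ± 0.28. The Ppp3ca call was lost without control 2 (edgeR adjusted p = 0.087), that of Depdc5 without control 1 (0.0818) or 2 (0.0502) and that of Sesn1 without control 1 (0.104) or 2 (0.162) and with DESeq2 (0.106). Relative to control, LPS + VD3 raised 2 and lowered 6 (30.8%, against 34.6% of all genes), with Lamtor4 at -1.11 ± 0.25, Ppp3ca at -0.98 ± 0.18 and Depdc5 at -0.86 ± 0.20. The call of Lamtor4 was lost without control 1 (edgeR adjusted p = 0.061) or LPS + VD3 2 (0.0839), and that of Depdc5 without control 1 (0.0972), control 2 (0.0588) or LPS + VD3 1 (0.0627). Of 23 autophagy genes 2 rose and 2 fell with LPS (17.4%, against 31.4% of all genes), with the cargo receptor Sqstm1 at 1.81 ± 0.15, Uvrag at -1.27 ± 0.20 and Atg7 at -1.16 ± 0.16. The same 3 genes stood at 2.18 ± 0.15, -1.22 ± 0.20 and -1.13 ± 0.16 in LPS + VD3 against control, where 3 rose and 3 fell (26.1%, against 34.6% of all genes). Of 7 tested protease inhibitors 2 rose and 1 fell with LPS (42.9%, against 31.4% of all genes). The secreted inhibitor Slpi rose by 3.27 ± 0.29 and the cytosolic cystatin Cstb by 0.54 ± 0.15, and Serpinb1a fell by 1.42 ± 0.16. The Cstb call was lost without scaling (edgeR adjusted p = 0.24) and without control 1 (0.138) or 2 (0.253). In LPS + VD3 against control Slpi stood at 2.73 ± 0.29 and Serpinb1a at -1.92 ± 0.17, the 2 of 7 that passed (28.6%, against 34.6% of all genes).

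With VD3 on top of LPS, 7 of the 163 tested genes of these 7 lists passed, a share of 4.29%, near the 3.81% of all genes tested. Arsb, the arylsulfatase that digests dermatan sulfate, rose by 1.37 ± 0.18 in log2 units (edgeR adjusted p = 0.00304). It went from 33.2 and 28.1 CPM with LPS to 71.7 and 86.3 with LPS + VD3, beside 36.3 and 33.8 in control. Gnptab rose by 0.65 ± 0.15 (0.0455). Pcyox1 fell by 0.90 ± 0.15, Ppt2, a thioesterase, by 1.35 ± 0.25, Mfsd12 by 1.47 ± 0.31 and Tfec, the fourth member of the TFEB family, by 0.74 ± 0.15. Pla2g15, named here after its value was seen, fell by 1.13 ± 0.21. Each of the calls named by the rule depended on single libraries: without LPS + VD3 2 the edgeR adjusted p was 0.0861 for Arsb, 0.372 for Gnptab, 0.161 for Pcyox1, 0.262 for Ppt2, 0.386 for Mfsd12 and 0.244 for Tfec. Without LPS + VD3 1 it was 0.129 for Gnptab, 0.0889 for Pcyox1, 0.164 for Ppt2, 0.138 for Mfsd12 and 0.129 for Tfec, while Arsb passed. Gnptab and Tfec were also lost without control 1 (0.148 and 0.096) or control 2 (0.148 and 0.0951) and in the compared libraries alone (0.154 and 0.102).

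Several of the lysosomal genes share exon sequence with a neighbour, and whether the counting used strand is not stated in the labels. In the GENCODE models the shared stretch was 774 bases for Ctsb with Fdft1, 442 for Cln3 with Apobr, 495 for Ctsa with Pltp, 1742 for Ctsl with an antisense gene and 670 for Ctsd with a gene model on the same strand. Fdft1 had between 201 and 518 counts per library, against 11737 or more for Ctsb. Apobr had 721 to 1232 counts, more than the 172 to 303 of Cln3, so the Cln3 level is uncertain. Glb1 shares 165 bases with Tmppe on the same strand. Tmppe had 228 to 295 counts, more than the 119 to 168 of Glb1, so the Glb1 level is uncertain too. Ctsb, Cln3, Ctsa, Ctsl, Ctsd and Glb1 did not pass in any comparison. Npc1, which did pass in LPS + VD3 against control, shares 192 bases with Rmc1 on the opposite strand.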

How the data were processed

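The values used are raw read counts for each gene in each library, as the authors deposited them. TopHat2, edgeR and mm10 are named, without role or version, per the submitters' processing notes. The RNeasy Micro kit gave the RNA and the KAPA mRNA HyperPrep kit the libraries, per the labels' protocols. For the counting program, its annotation and its strand setting: not given in the sources used here. A second deposited table of log2 values was not used.

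The test was edgeR 4.0.16 under R 4.3.3. There filterByExpr (minimum count 10, minimum total 15) kept 10724 of 23413 genes, libraries were scaled by TMM, and 1 quasi-likelihood fit of the 3 groups used all 6 libraries, with Benjamini-Hochberg adjustment over all genes tested at 0.05. Each SE divides the absolute log2 fold change by the root of its F statistic. The fit was tested on simulated data. Gene models and GC content came from GENCODE M21, with GC for 99.2% of the genes tested, and promoters from RefSeq (GRCm38.p6).

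Alternatives were DESeq2 1.42.0, no scaling, no filter beyond 1 count, the compared libraries alone, the replicate block, GC offsets, both together, and each library left out. The members and lists were chosen with earlier results of these data known. The text names all 32 members, up to 3 genes with the smallest p per other list and comparison among those that pass, and markers of other cells that pass or stand at 0, of which some are not reported here.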

Additional observations from a re-analysis of the deposited data

How the results depend on the processing

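Of the 8 calls with LPS, DESeq2, GC offsets and the replicate block each kept all 8, and of the 12 calls in LPS + VD3 against control 11, 12 and 12. Of the same 8 and 12 calls, 7 and 9 were kept with every gene of at least 1 count. Without scaling 7 and 12 were kept, and in the compared libraries alone 6 and 12. With 2 libraries a group, a fit that leaves 1 out assumes that the lone library varies like the other groups. Counts that moved by over 1.5 times follow. Where no share of all genes that passed is given for a fit, its counts are not read as a result about the lysosomal genes. For LPS against control, the raised count of 2 became 1 without scaling, 4 with the replicate block, 6 with GC offsets and 7 with GC offsets and the block, and 1 to 9 with a library left out; the lowered count of 6 became 11 without scaling and 2 to 8 with a library left out. For LPS + VD3 against LPS, the raised count of 0 became 0 to 3 with a library left out. The lowered count of 0 became 2 with the replicate block (Tfeb, edgeR adjusted p = 0.033, and Ctsk, 0.0477), 1 with GC offsets, 2 with both and 0 to 10 with a library left out. For LPS + VD3 against control, the raised count of 1 became 4 in the compared libraries alone, 2 with the replicate block, 5 with GC offsets and 6 with both, and 1 to 5 with a library left out, and the lowered count of 11 became 18 without scaling and 2 to 13 with a library left out. The cause of these shifts was not tested, except that fits without a library rest on fewer samples.

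Some log2 fold changes of genes that did not pass changed sign, and none passed with the other sign. Without scaling this held in LPS + VD3 against control for Ctsb (-0.066), Ctsc (-0.015), Ctsz (-0.053), Lamp1 (-0.086) and Tfe3 (-0.0077), and in LPS against control for Gaa (-0.11). With GC offsets, alone and with the block, it held for Gaa in LPS against control (-0.027 and -0.031) and in LPS + VD3 against LPS (0.0073 and 0.0083), and for Ctsz in the latter (0.082 and 0.082). With a library left out, LPS against control ranged from -0.22 to 0.50 for Gaa, from -0.72 to 0.030 for Lamp2, from -0.0076 to 0.70 for Mcoln1 and from -0.53 to 0.060 for Neu1, and LPS + VD3 against LPS from -0.0046 to 0.43 for Asah1. These ends came without LPS 1 or without LPS 2.

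The source names of LPS + VD3 libraries carry the numbers of LPS libraries, but nothing states a pairing. Deviations from the group means correlated between libraries of equal number at r = 0.17 (control and LPS), 0.09 (control and LPS + VD3) and 0.20 (LPS and LPS + VD3). With the replicate block 10.4% of all genes passed in LPS + VD3 against LPS, where 3.81% did without it. Depth limits Smpd1 and Tfeb most, with 36 and 16 counts in their lowest libraries.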
